A study of Mus musculus with 20 samples.

Results

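The genes described here are 40 genes of protein folding, secretion and stress in the endoplasmic reticulum (ER), followed over 20 cells of the mouse inner cell mass. They were taken as a named list: chaperones, disulfide enzymes, degradation factors, stress sensors, the translocation channel and its partners, signal peptidase subunits and calcium-binding proteins of the reticulocalbin family. All 40 of the 40 had a probe set on the array, and each was represented by its brightest probe set. The array measured 18193 genes in this way, of which 10191 lay above a background floor in at least 3 of the 20 cells. Of the list, 39 passed that filter, and Ern1, above the floor in 2 cells, did not.

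The ER is where secreted and membrane proteins enter the secretory pathway. Nascent chains pass through the Sec61 channel, lose their signal peptide to signal peptidase, receive glycans and disulfide bonds, and fold with the help of the Hsp70 protein BiP (Hspa5), the Hsp90 protein GRP94 (Hsp90b1) and the lectins calnexin and calreticulin. Chains that do not fold are returned to the cytosol and degraded. When unfolded protein accumulates, the sensors IRE1 (Ern1), ATF6 and PERK (Eif2ak3) start the unfolded protein response: IRE1 splices the Xbp1 mRNA, PERK slows translation, and ATF6 and XBP1 raise transcription of chaperone and degradation genes. In the blastocyst the primitive endoderm is a secretory epithelium that lays down basement membrane, while the epiblast beside it produces the ligand Fgf4.

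Each array held the PCR-amplified cDNA of 1 cell, picked at random from dissociated inner cell masses of C57BL/6 blastocysts at embryonic day 3.5 that had received no treatment named in the labels. Per the series design, 55 cells were picked and 50 of them were positive for Oct4 and negative for Cdx2 by PCR, and 20 arrays are described here. All arrays carry the same label, no embryo or litter is named for any cell, and no technical repeat of a cell was given. The cells were therefore set apart by a measured gene that is no member: Fgf4-positive cells had a deposited Fgf4 intensity of 500 or more and Fgf4-negative cells less. The rule gave 10 positive cells (cells 1, 2, 7, 9, 12, 13, 14, 16, 18 and 19), at 1568 to 4967 with a median of 2989, and 10 negative cells (3, 4, 5, 6, 8, 10, 11, 15, 17 and 20), at 1 to 5.37. The positive cell nearest the threshold stood at 1568 and the nearest negative cell at 5.37, so no cell lay close to it. Because the classes come from a measurement, and cells of 1 embryo cannot be recognised, no p-value is given between them.

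The promoters are shown first, since the response acts through short DNA elements that can be searched for. The RefSeq promoter table (GRCm38.p6, 250 bases before to 50 bases after a start site) held 32 of the 40 genes; Hyou1, Erp29, Manf, Atf6, Sec61a1, Ssr2, Spcs3 and Rcn1 were not matched. The ER stress response element ERSE, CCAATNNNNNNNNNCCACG on either strand, was found in 8 of the 32, against 0.137% of the 27025 genes in the table. The members were listed as ER folding and stress genes, and ERSE is an element of that response. The contrast, here and for the other elements below, is thus a description and no independent result. Stretches of 39 bases around the matches follow, each 5′ to 3′ on the strand of its gene, with the match in capitals:

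Hspa5, chr2:34772015-34772053 (plus strand): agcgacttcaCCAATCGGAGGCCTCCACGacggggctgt

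Hsp90b1, upstream match, chr10:86705628-86705666 (minus strand): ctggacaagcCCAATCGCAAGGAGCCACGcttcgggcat

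Hsp90b1, downstream match, chr10:86705523-86705561 (minus strand): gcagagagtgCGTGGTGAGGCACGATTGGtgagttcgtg

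Dnajc3, chr14:118937817-118937855 (plus strand): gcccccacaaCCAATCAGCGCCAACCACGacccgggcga

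Calr, chr8:84847065-84847103 (minus strand): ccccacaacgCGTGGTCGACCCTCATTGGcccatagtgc

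Canx, chr11:50325790-50325828 (minus strand): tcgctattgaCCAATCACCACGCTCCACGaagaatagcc

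Pdia6, chr12:17266481-17266519 (plus strand): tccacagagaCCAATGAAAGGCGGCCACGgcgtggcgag

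Creld2, chr15:88819510-88819548 (plus strand): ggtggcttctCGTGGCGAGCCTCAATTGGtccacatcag

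Syvn1, chr19:6046522-6046560 (plus strand): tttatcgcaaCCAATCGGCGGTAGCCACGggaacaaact

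Hsp90b1 alone had more than 1 match. The matches began between 212 bases (Hsp90b1) and 44 bases (Syvn1) before the start site, and that of Hspa5 began 65 bases before it. For context, the 250 bases upstream of the Hspa5 start are shown whole, with the same match in capitals:

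Hspa5, chr2:34771840-34772089 (plus strand): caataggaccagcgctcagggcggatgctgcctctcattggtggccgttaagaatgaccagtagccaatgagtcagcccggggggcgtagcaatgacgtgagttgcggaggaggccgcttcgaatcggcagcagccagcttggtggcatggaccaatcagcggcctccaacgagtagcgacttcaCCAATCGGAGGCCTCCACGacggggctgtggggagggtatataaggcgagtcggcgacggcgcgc

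The shorter element ERSE-II, ATTGGNCCACG on either strand, was found in 2 further members, against 0.0444% of genes. Herpud1 held ATTGGGCCACG at chr8:94386377-94386387 (plus strand), beginning 52 bases before its start. Dnajb11 held ATTGGCCCACG at chr16:22857852-22857862 (plus strand), beginning 8 bases after its start. The XBP1 and ATF6 core TGACGTGG, searched on both strands, was found in Txndc5 alone at chr13:38528045-38528052 (minus strand), against 0.714% of genes. At least 1 of the 3 motifs was present in 11 of the 32 members and in 0.884% of genes. ERSE and ERSE-II share CCACG, but no member held more than 1 of the 3 motifs. A match is a description of letters in this window and shows no binding in these cells, and the lack of one says only that these letters were not found there.

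A level in what follows is log2 of the quantile-normalized probe set intensity, with values under a common floor of 103.7 (6.70 on the log2 scale) raised to that floor. A difference is the mean of the positive cells minus the mean of the negative cells, so a negative difference means higher in Fgf4-negative cells, and it understates the contrast where cells sit at the floor. A gene was called where the class means differed by at least 1 (2-fold) and by more than the larger of the class SDs. The arrays were alike in signal apart from cell 19, whose deposited median was 15 against 25.6 to 30.2 in the others. The mean level of all tested genes lay between 8.43 and 8.51 in every cell. Quantile normalization largely sets that mean, so it does not show how alike the cells were in total signal.

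Marker genes followed the split by Fgf4. All 5 epiblast markers were called higher in the positive cells, among them Fgf4 itself, which fixed the classes, and all 5 primitive endoderm markers were called higher in the negative cells. Pou5f1 was above the floor in 20 of 20 cells. Of the 5 trophectoderm markers, 4 were above the floor in 0 cells, and the summed intensity of that list ranged from 209.9 to 366.3 in positive and from 217.0 to 323.5 in negative cells. The visceral and parietal endoderm products Ttr and Afp and the blood marker Ptprc were also above the floor in 0 cells. Of the 3 oocyte markers, Zp3 alone was called, higher in the positive cells, above the floor in 8 of 10 of them and in 0 negative cells. Another 1 of the 3 had the higher mean in the negative cells. Vim, in the blood and stroma list, was above the floor in 1 positive and 5 negative cells. The part of the oocyte markers and Vim in the members' differences was not tested.

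Cells 4 and 20, both Fgf4-negative, stood apart in the members and are named here because of it, after their values were seen. The mean level of the 39 members was 10.78 in cell 4 and 10.33 in cell 20, against 9.04 to 9.85 (median 9.59) in the other 8 negative cells and 9.11 to 9.64 (median 9.28) in the positive cells. Over all tested genes they also correlated least with the rest, at a mean r of 0.719 and 0.728, where cell 17 came next at 0.747. Their deposited medians were 25.6 and 26.2, at the lower end of the 19 arrays other than cell 19, and their part in the members' levels was not tested. Values without them stand beside the counts and differences they move most.

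Across the list, the Fgf4-negative cells had the higher means. The mean was higher in the negative cells for 31 of the 39 members (79.5%), against 48.1% of all tested genes. The median difference over the 39 members was -0.32, where the median over all tested genes was 0.01. Most of these differences were small beside the spread between cells: 4 members (10.3%) were called higher in the negative cells, against 1.76% of all tested genes, and 0 of 39 were called higher in the positive cells, against 2.67%. For no member were the classes free of overlap, a pattern seen in 0.236% of all tested genes. Without cells 4 and 20 the count with a higher mean in negative cells was 24 of 39, against 46.9% of genes, the median difference was -0.17, and 2 members were called higher in negative cells, against 1.98% of genes. The difference turned sign for 7 of the 39 without them: Dnajc3, Manf, Creld2, Herpud1, Sec61b, Spcs3 and Rcn3.

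**Figure D1:**
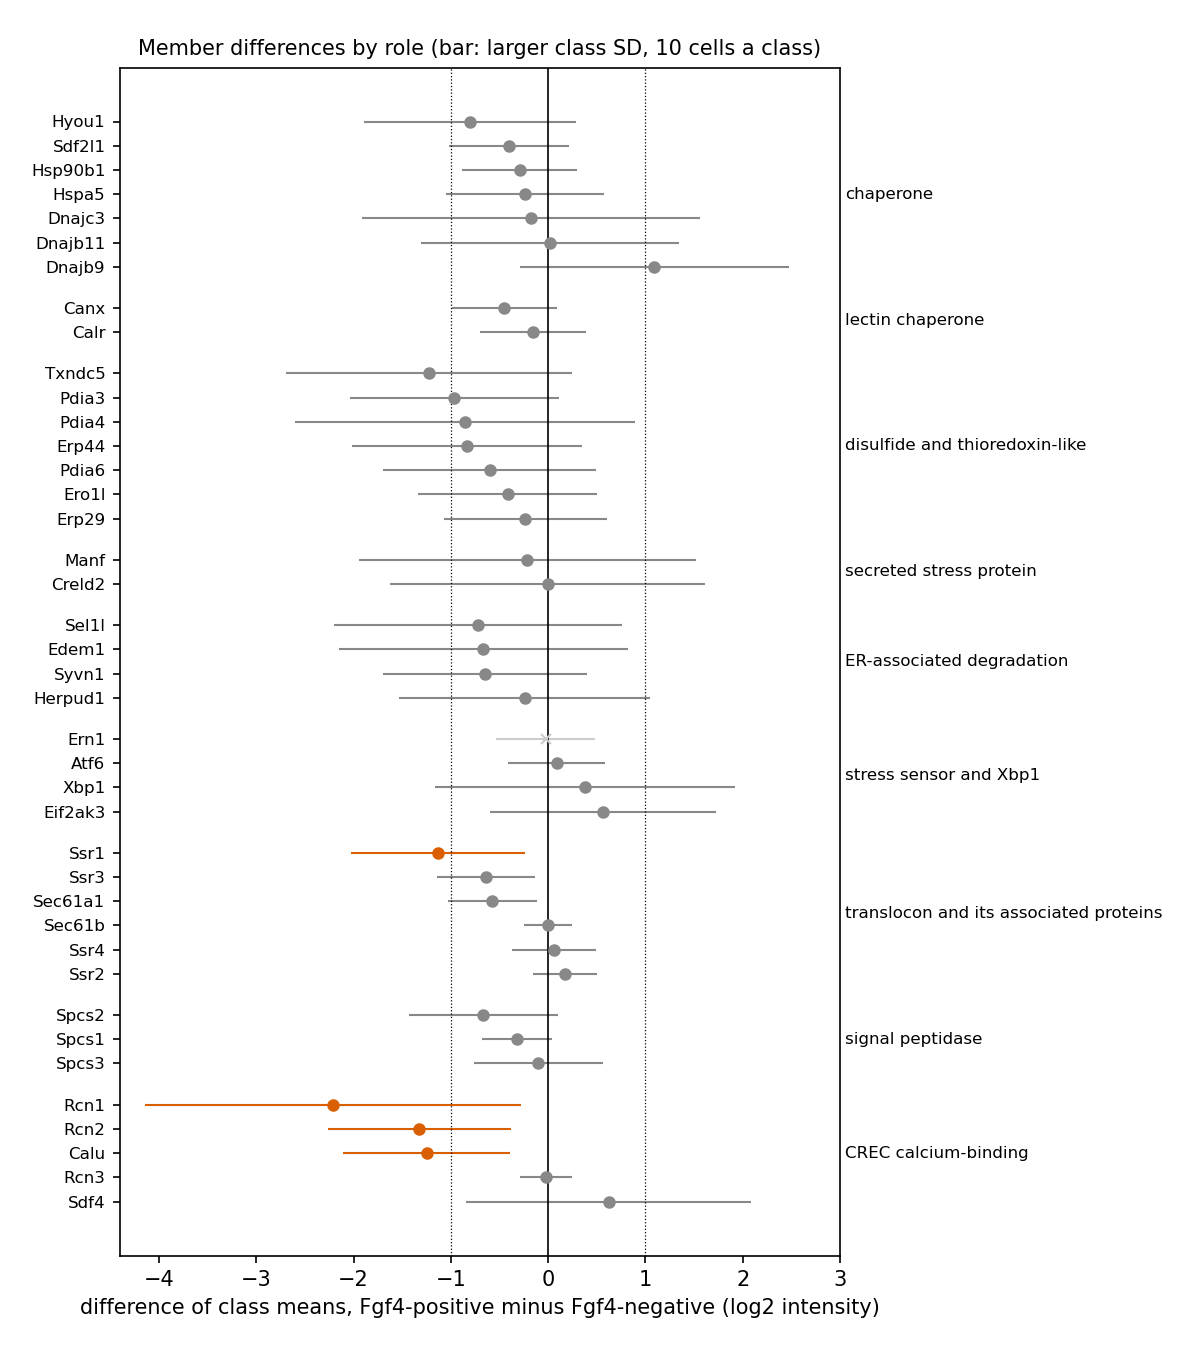
Difference of class means (horizontal axis, log2 intensity, Fgf4-positive minus Fgf4-negative) for each of the 40 members grouped by role, with the larger class SD as the bar; dotted lines mark the 2-fold limits and orange marks the 4 called members. Rcn1, Rcn2, Calu and Ssr1 lie beyond the left limit with bars that do not reach 0, and Ern1 (cross) was above the floor in 2 cells.

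The CREC family held 3 of the 4 called members. These are EF-hand calcium-binding proteins of the secretory pathway: reticulocalbins 1, 2 and 3 (Rcn1, Rcn2, Rcn3), calumenin (Calu) and Cab45 (Sdf4), the last a Golgi protein. Rcn1 (probe set 1417090_at) ranged from 6.70 to 9.96 with a median of 6.70 in the positive cells and from 6.70 to 12.06 with a median of 10.59 in the negative cells. It was above the floor in 4 of 10 positive and 8 of 10 negative cells, with only negative cells 6 and 8 at the floor. Its class means were 7.76 ± 1.41 and 9.98 ± 1.93 (SD, n = 10 each), a difference of -2.21 or 4.64-fold. The highest cells were 4 and 20, at 11.88 and 12.06, and without both the difference was -1.72, less than the SD of 1.84 in the other 8 negative cells, so Rcn1 was not called. The call held without either cell alone, and without cells 4, 8, 17 and 20 together.

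Calu (probe set 1415870_at) ranged from 7.92 to 10.60 with a median of 9.49 in the positive cells and from 10.02 to 11.89 with a median of 10.60 in the negative cells. Every one of the 10 negative cells lay above the median of the positive cells, although the classes overlapped between 10.02 and 10.60. The means were 9.59 ± 0.86 and 10.84 ± 0.63 (SD, n = 10 each), a difference of -1.25 or 2.38-fold, and -1.14 without cells 4 and 20. Rcn2 (probe set 1422449_s_at) ranged from 6.70 to 9.98 with a median of 9.21 in the positive cells and from 8.03 to 11.25 with a median of 10.56 in the negative cells. Its low value among the negative cells was that of cell 10, and 9 of 10 negative cells lay above the positive median. The means of Rcn2 were 8.93 ± 0.93 and 10.25 ± 0.94 (SD, n = 10 each), a difference of -1.32 or 2.50-fold, and -1.15 without cells 4 and 20. Both Calu and Rcn2 met the call rule with and without those cells. Rcn2 was not called without cells 4, 8, 17 and 20. Neither was called when a gene's probe sets were averaged, where the Rcn2 difference was -0.69 and the Calu difference -0.84. The second probe set of Rcn2 (1444248_at) was above the floor in 0 positive and 1 negative cells, and that of Calu (1441477_at) in 2 and 3. Averaging with values at the floor makes a difference smaller.

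The other CREC members did not share that pattern. Rcn3 was nearly level, at 9.80 ± 0.24 in positive and 9.82 ± 0.27 in negative cells (SD, n = 10 each). Sdf4 had the higher mean in the positive cells, 9.80 ± 0.88 against 9.17 ± 1.46 (SD, n = 10 each), and its difference of 0.62 was within the SD. The called genes also did not rise and fall as 1 block over cells. With class means subtracted, Rcn1 and Calu correlated at r = 0.64 over the 20 cells and 0.65 without cells 4 and 20, while Rcn1 and Rcn2 stood at 0.07 and -0.06.

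The fourth called member was Ssr1, the alpha subunit of the translocon-associated (TRAP) complex that sits beside the Sec61 channel. Its probe set 1417763_at ranged from 7.49 to 10.66 with a median of 10.14 in positive cells and from 9.63 to 11.83 with a median of 11.10 in negative cells. The low positive value belonged to cell 2, and the next positive cells lay well above it. The means were 9.85 ± 0.90 and 10.98 ± 0.69 (SD, n = 10 each), a difference of -1.13 or 2.19-fold, and -0.94 without cells 4 and 20, which misses the 2-fold limit; without cell 2 alone the Ssr1 difference was -0.87, which misses it too. The probe sets of Ssr1 disagreed: another one above the floor in 20 of 20 cells (1417764_at) differed by -0.05, and a dimmer one (1448843_at) by -1.30 with an SD of 1.62 in the negative cells. When a gene's probe sets were averaged, Rcn1 was the 1 member still called, and 1.06% of all tested genes were called higher in negative cells.

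**Figure D2:**
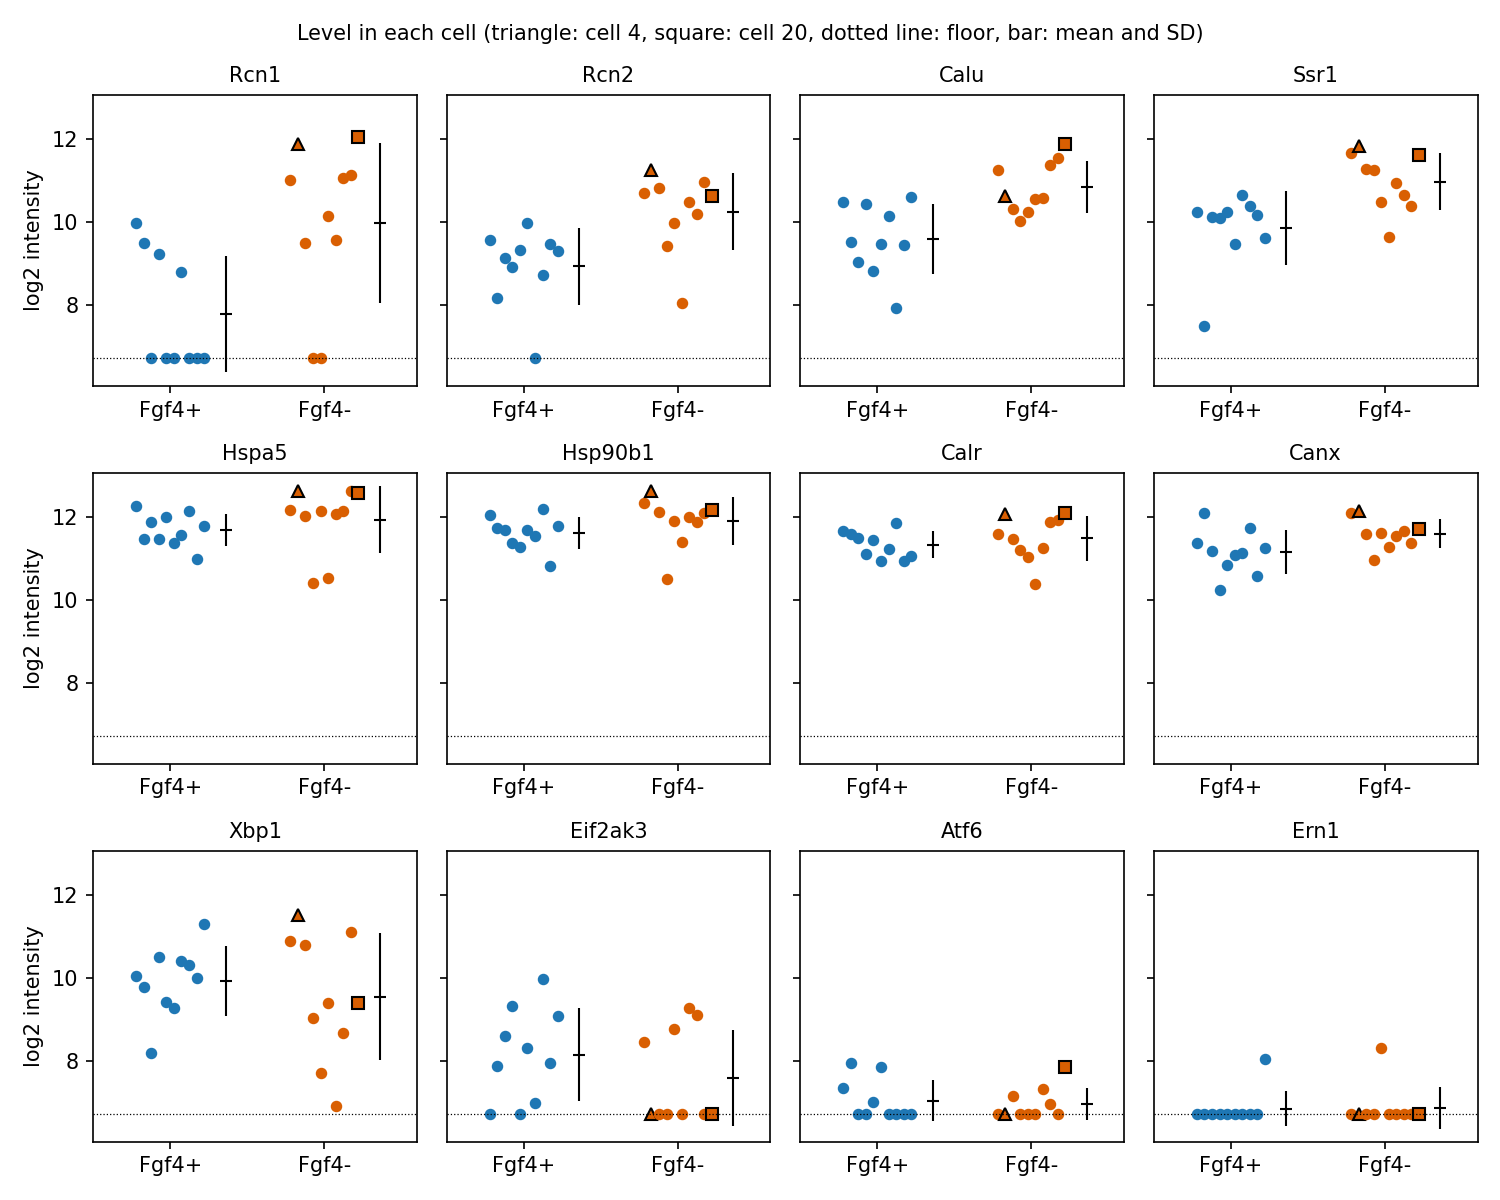
Level of 12 members (log2 intensity, vertical axis) in each of the 10 Fgf4-positive (blue) and 10 Fgf4-negative (orange) cells, with the class mean and SD as a black bar and the floor of 6.70 as a dotted line. The called members Rcn1, Rcn2, Calu and Ssr1 (top row) lie higher in negative cells with overlap, Hspa5, Hsp90b1, Calr and Canx lie at like levels in both classes, and Ern1 and Atf6 lie mostly at the floor; cell 4 is the triangle and cell 20 the square.

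The other translocon members were present in every cell at steady levels. Sec61b, the small beta subunit of the channel, was at 12.17 ± 0.20 in positive and 12.17 ± 0.25 in negative cells (SD, n = 10 each). Sec61a1, its pore-forming subunit, was at 10.65 ± 0.33 and 11.22 ± 0.46 (SD, n = 10 each). That difference of -0.58 exceeded both class SDs, and 9 of 10 negative cells lay above the positive median, but it fell short of 2-fold. Other Sec61a1 probe sets above the floor in all 20 cells differed by -0.49 (1434986_a_at) and by only -0.16 (1448242_at). The difference of -0.64 in the TRAP gamma subunit Ssr3 also fell short of 2-fold. The TRAP subunits Ssr2 (0.17) and Ssr4 (0.06) differed by less, in the opposite direction. Of the signal peptidase subunits, Spcs1 differed by -0.32, Spcs2 by -0.66 and Spcs3 by -0.10, each within its SD. Another Spcs2 probe set above the floor in all 20 cells (1450907_at) differed by -0.03. In all, 21 of the 39 members (53.8%) were above the floor in each of the 20 cells, against 31.2% of all tested genes, and these included each of the translocon and signal peptidase members.

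The chaperones most often read as signs of ER stress were abundant in each cell and differed little between classes. Hspa5 ranged from 10.99 to 12.27 with a median of 11.69 in positive cells and from 10.41 to 12.65 with a median of 12.15 in negative cells. The lowest Hspa5 levels were those of negative cells 6 and 10, and the highest those of negative cells 4, 17 and 20. Its means were 11.70 ± 0.39 and 11.94 ± 0.81 (SD, n = 10 each), so the difference of -0.24 lay within the spread. Hsp90b1 ranged from 10.83 to 12.20 with a median of 11.69 in positive and from 10.51 to 12.65 with a median of 12.07 in negative cells. Its difference of -0.29 was also within the larger SD of 0.59.

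The glycoprotein lectins were close between classes as well. Calr, calreticulin, ranged from 10.95 to 11.87 with a median of 11.34 in positive and from 10.39 to 12.12 with a median of 11.53 in negative cells, a difference of -0.16. Canx, calnexin, ranged from 10.23 to 12.11 with a median of 11.16 in positive and from 10.96 to 12.16 with a median of 11.60 in negative cells, a difference of -0.45. Of the negative cells, 9 of 10 were above the positive median for Canx and 6 of 10 for Calr. The classes overlapped over most of their range for both genes.

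Among the co-chaperones the sign varied. Dnajb9 (ERdj4), a J-domain partner of BiP, had the largest difference towards the positive cells of any member: 9.49 ± 0.85 against 8.40 ± 1.38 (SD, n = 10 each), a difference of 1.09 that was under the larger SD. It was above the floor in 10 of 10 positive and 7 of 10 negative cells, yet its highest value was in negative cell 4. Leaving out cell 4 made it a called member, higher in the positive cells. Dnajb11 (ERdj3) differed by 0.02 and Dnajc3 (p58IPK) by -0.17, and by 0.35 and 0.57 without cells 4 and 20, so the sign of Dnajc3 turned. Sdf2l1, a partner of Dnajb11, differed by -0.40 and Hyou1, a large Hsp70-like protein that releases nucleotide from BiP, by -0.80. Dnajc3 was at the floor in 10 of the 20 cells, and its highest levels were in cells 20 and 4, at 11.09 and 10.64, against at most 8.68 in the other negative cells.

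The 7 disulfide and thioredoxin-like members had lower means in the positive cells without exception, with a median difference of -0.83, and 0 of them met the call rule. Over all tested genes 48.1% had the lower mean in positive cells. The sign held in the 7 without cells 4 and 20, with a median of -0.53. Txndc5 was at 7.68 ± 1.004 against 8.90 ± 1.47 (SD, n = 10 each), a difference of -1.23, and was above the floor in 6 positive and 9 negative cells. Pdia3, the isomerase that works with calnexin and calreticulin, differed by -0.96 with an SD of 1.08. Pdia4 was above the floor in 2 positive and 6 negative cells and differed by -0.85 with an SD of 1.75, or -0.22 without cells 4 and 20, while Pdia6 differed by -0.60, or -0.20 without those cells. Erp44, which retains clients in the early secretory pathway, differed by -0.83, and Erp29, a relative without the redox-active site, by -0.23. The oxidase Ero1l (Ero1a in the platform's naming) was above the floor in 1 positive and 3 negative cells.

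Degradation and secreted stress members were uneven from cell to cell. Herpud1, Syvn1 (the ubiquitin ligase HRD1), its adaptor Sel1l and the mannosidase-like Edem1 differed by -0.24, -0.65, -0.72 and -0.67, each less than its SD, and none of the 4 was above the floor in all cells. These values were 0.11, -0.38, -0.32 and -0.30 without cells 4 and 20, so Herpud1 turned sign. The secreted proteins Manf and Creld2 differed by -0.21 and 0.00, and by 0.13 and 0.55 without cells 4 and 20. Manf was at 8.79 or above in 10 of 10 positive cells and reached 12.69 and 12.45 in cells 4 and 20, yet it was at the floor in negative cell 10.

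The sensors were often at the floor. Ern1 was above the floor in cell 19, at 8.04, and in cell 8, at 8.30, and in no other cell, so it was not tested. Atf6 was above the floor in 4 of 10 positive and 4 of 10 negative cells; its median was 6.70 in both classes and its highest values were 7.94 and 7.83. The Atf6 difference of 0.09 is that of probe set 1453288_at. With values as read, not raised to the floor, the brightest probe set was chosen anew. The Atf6 difference was then -1.61 and met the call rule. The intensities of 1453288_at do not give that value, so it is that of another Atf6 probe set, and the part of the floor was not tested. Eif2ak3 ranged from 6.70 to 9.96 with a median of 8.13 in positive cells and from 6.70 to 9.28 with a median of 6.70 in negative cells. It was above the floor in 8 positive and 4 negative cells, and the difference of 0.56 was within the SD of 1.16. A value at the floor is a bound set by the array's background and does not show that the mRNA was absent.

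Xbp1, the transcription factor activated by splicing, ranged from 8.17 to 11.31 with a median of 10.02 in positive cells and from 6.89 to 11.52 with a median of 9.39 in negative cells. Its mean was higher in the positive cells by 0.38, within the SD of 1.54. Splicing of Xbp1 was not measured, and its level hardly followed that of BiP: the correlation with Hspa5, class means subtracted, was 0.20 over the 20 cells and 0.10 without cells 4 and 20.

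A further pattern of the list was the wider spread among the Fgf4-negative cells. The SD was larger in the negative class for 31 of 39 members (79.5%), against 56.1% of all tested genes, and the median SD of the members was 0.80 in positive and 0.92 in negative cells, against 0.66 and 0.72 over all tested genes. The ratio of the SDs, negative over positive, was 2.31 for Dnajb11, 2.30 for Pdia6, 2.08 for Hspa5 and 2.03 for Creld2. These ratios were 2.21, 1.52, 2.12 and 1.54 without cells 4 and 20. Without cells 4 and 20 the negative class had the larger SD for 25 of 39 members, against 51.6% of genes.

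**Figure D3:**
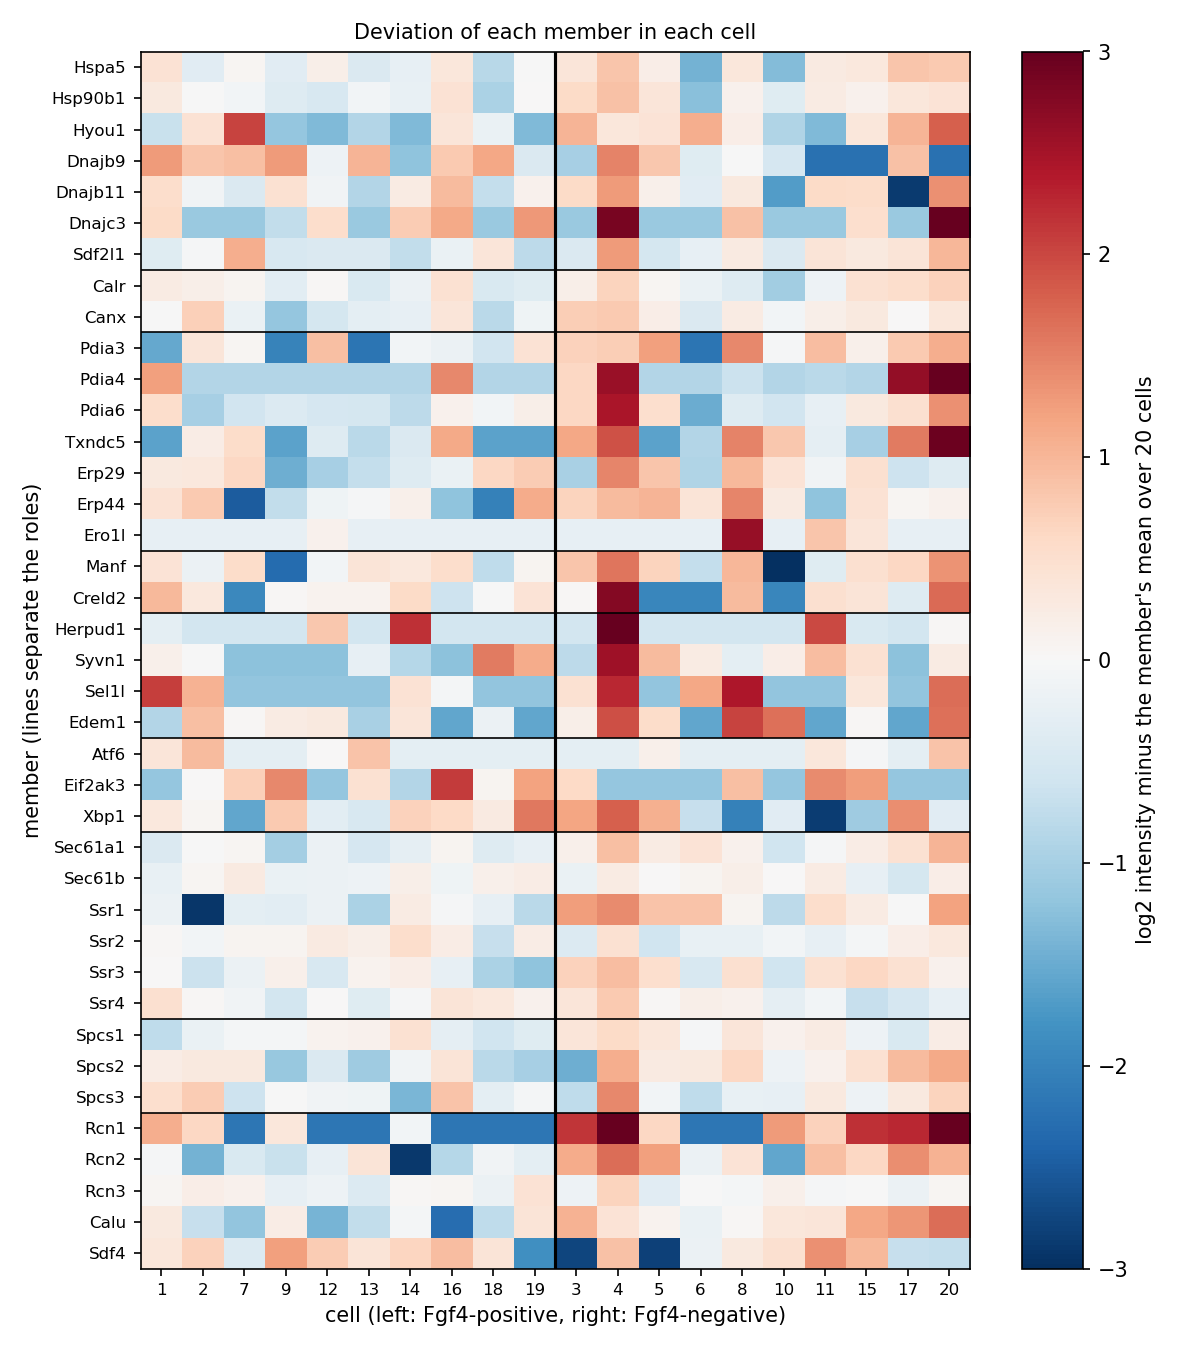
Deviation of each of the 39 tested members (rows, in the order of their roles) in each of the 20 cells (columns, positive cells left of the black line) from its mean over the 20 cells, in log2 intensity, with colours capped at 3 in either direction. The columns of cells 4 and 20 are red over most rows, and those of cells 6 and 10 are blue over many.

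Cell 4 was the highest of the 20 cells for 19 of the 39 members and cell 20 for another 9. Together these 28 members make 71.8% of the list, against 15.8% of all tested genes with their highest value in either cell. Since the 2 cells were named for the members' high values, this contrast is a description and no test. For 10 members the top 2 cells were these 2. Of the other probe sets of the members above the floor in at least 10 cells, 15 of 20 had their highest value in cell 4 or 20. They measure the same genes on the same arrays, some genes more than once, so they are no independent check. The share over all probe sets was not taken. Not every member was high there. Eif2ak3 and Ern1 were at the floor in both, Atf6 was at the floor in cell 4 but, at 7.83 in cell 20, the highest of the negative cells, Xbp1 was highest in cell 4 but 13th in cell 20, and Dnajb9 was highest in cell 4 and at the floor in cell 20.

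The members with an ERSE in the window shown above were among those high in these cells, which were named for the members' own values. All 8 had their highest value in cell 4 or 20 (7 with deposited intensities), as did 28 of all 39 members. For 4 of the 8 these were the top 2 cells. Some leads were slight: Hspa5 was at 12.649 in cell 4 and 12.643 in cell 17. The mean level of the 8 was 11.74 in cell 4 and 11.13 in cell 20, against 9.07 to 10.37 in the other negative cells and 9.40 to 10.42 in the positive cells. The 23 tested members in the table with no ERSE stood at 10.51 and 9.96 in those cells, against 9.04 to 9.88 and 8.93 to 9.39. At the other end, negative cells 6 and 10 had the lowest ERSE means, 9.07 and 9.24.

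**Figure D4:**
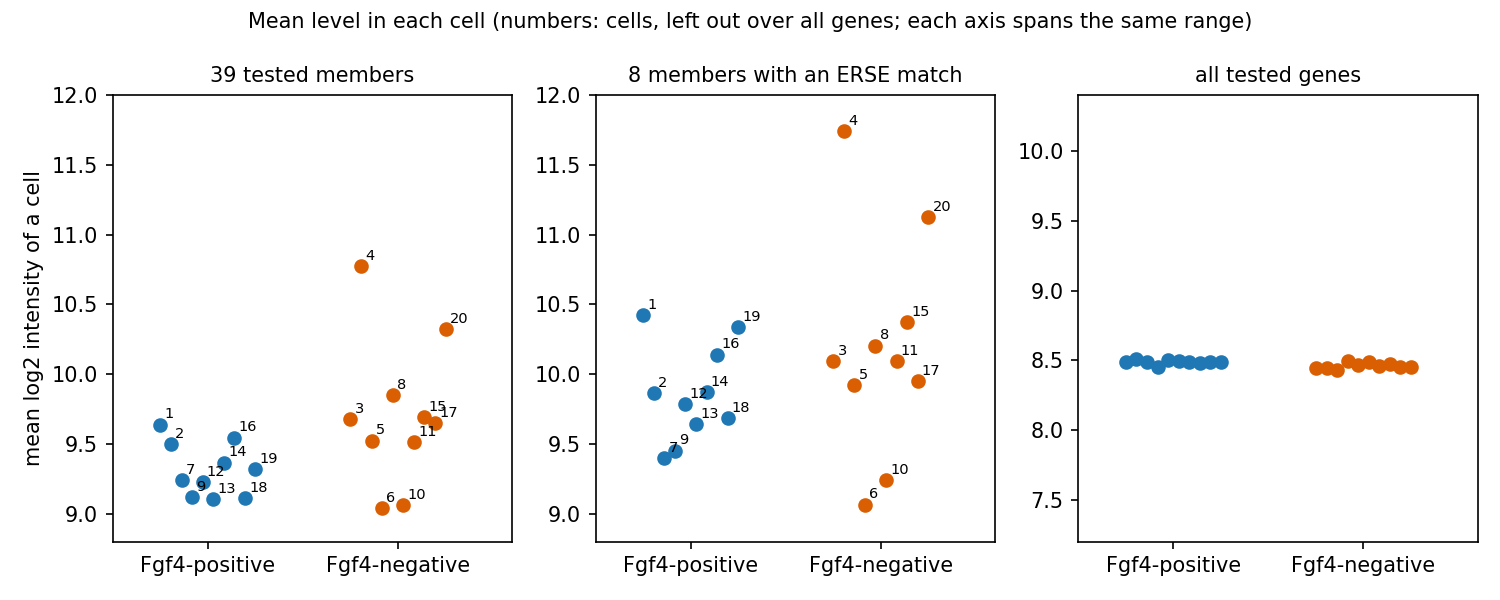
Mean log2 intensity of each cell over the 39 tested members, over the 8 members with an ERSE match and over all tested genes; points are cells, numbered in the left and middle panels, and each axis spans the same range. Cells 4 and 20 lie above the rest in the left and middle panels, at 10.78 and 10.33 and at 11.74 and 11.13. The cells are level over all genes at 8.43 to 8.51, which quantile normalization largely sets.

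The ERSE members also varied together. With class means subtracted, the median Pearson r over the 28 pairs of these 8 genes was 0.50 across the 20 cells, against 0.12 over 253 pairs of members with no ERSE, 0.19 over all pairs of tested members and -0.0015 over all pairs of tested genes. Without cells 4 and 20 the values were 0.29, 0.04, 0.07 and -0.0018. These are descriptions over cells that share a normalization, with 1 array a cell. The members with no ERSE include the ERSE-II carriers Herpud1 and Dnajb11 and genes often at the floor, such as Ero1l and Pdia4. The ERSE members include Dnajc3, also often at the floor. Over pairs of the 21 members above the floor in all 20 cells the median r was 0.24, against 0.0004 over all such genes. The part of the floor in the contrast by ERSE was not tested. Certain pairs held at like strength without the high cells: Hspa5 and Hsp90b1 at 0.84 and 0.83, Hspa5 and Calr at 0.77 and 0.72, Hspa5 and Pdia6 at 0.72 and 0.71. Manf, whose promoter was not in the table, followed Hspa5 at 0.75 and 0.71.

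Ranked by the correlation of a member with the mean of the other members, the top 6 of 39 each carried an ERSE: Pdia6, Creld2, Dnajc3, Hspa5, Hsp90b1 and Calr, from 0.81 down to 0.71. Canx stood 11th and Syvn1 28th, at 0.61 and 0.23. The median was 0.74 over the 8 ERSE members and 0.33 over the 23 without. Without cells 4 and 20 the medians were 0.60 and 0.16, and Syvn1 fell to -0.25.

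**Figure D5:**
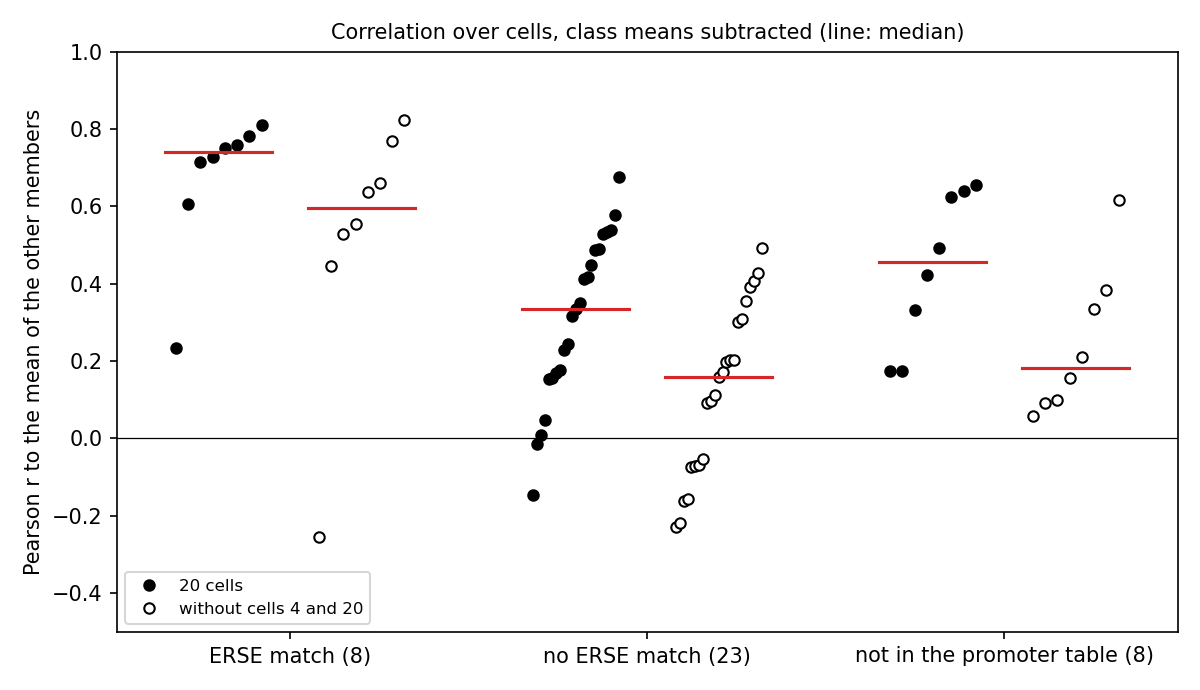
Pearson r of each of the 39 tested members with the mean of the other members over 20 cells (filled) and over 18 cells without cells 4 and 20 (open), class means subtracted, by whether the promoter window held an ERSE; red lines are medians. The ERSE group has medians of 0.74 and 0.60 and the group without ERSE 0.33 and 0.16, with Syvn1 the low point of the ERSE group.

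Over all tested genes that are no member, those most correlated with the mean of the members were Tmprss2 (0.84), Arhgef5 (0.83), Trp53i13 (0.82), Ada (0.82) and Hdac7 (0.82), over 20 cells with class means subtracted. All 5 were dim, above the floor in 3 to 8 of the 20 cells, so these values rest on few cells. They were 0.42, 0.43, 0.59, 0.19 and 0.38, in the same order, without cells 4 and 20.

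The wider ER machinery was followed with 145 other genes in 6 lists, of which 139 had a probe set and 128 were tested. Of the 128, 5 were called higher in the negative and 0 in the positive cells, and 83 had the higher mean in the negative cells, with a median difference of -0.18. Over all tested genes the shares were 1.76%, 2.67% and 48.1%. The counts were 5, 0 and 72 of 127 without cells 4 and 20, with a median of -0.07. The called genes were Dnajc10 (ERdj5, a disulfide reductase) at -1.85, Sec61a2 (the second Sec61 alpha) at -1.09, Creb3l2 (a membrane-bound transcription factor related to ATF6) at -2.19, Kdelr3 (a receptor that returns ER proteins from the Golgi) at -2.01, and Mcfd2 (a cargo receptor subunit) at -1.26. Kdelr3 was above the floor in 1 positive and 7 negative cells, and its highest levels were 11.26 and 11.33 in cells 4 and 20. Without those cells Kdelr3 stayed called at -1.37, Mcfd2 at -1.09 was no longer called, and Mbtps2, a protease that activates ATF6, was.

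By list, 1 of 21 folding and disulfide genes, 1 of 19 targeting and translocation genes, 1 of 16 stress signalling genes and 2 of 35 ER-to-Golgi traffic genes were called. In the traffic list 27 of 35 means were higher in negative cells, with a median difference of -0.36. The coat subunit Arcn1 was the only one of the 128 whose classes did not overlap: its 10 negative cells lay between 11.61 and 12.03 and its 10 positive cells between 10.50 and 11.45, a difference of -0.71. None of 19 glycosylation genes was called; their largest differences were -0.68 for Krtcap2 and -0.56 for Mogs in one direction and 0.87 for Uggt1 and 0.17 for Stt3b in the other. None of 18 further degradation genes was called, from -1.06 for Selenos and -0.70 for Ube2g2 to 0.36 for Ube2j2 and 0.40 for Derl2.

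Cells 4 and 20 were the top 2 cells for the mean of the folding, glycosylation, degradation and traffic lists too, and ranked 3 and 1 for targeting and translocation. In the folding list the lead was slight, at 9.45 and 9.43 against at most 9.43 in the positive cells. In the traffic list it was wider, at 10.09 and 10.26 against at most 9.88 in the other negative and 9.54 in the positive cells. For stress signalling cell 4 ranked 2 and cell 20 ranked 15. Atf4, the translationally controlled factor downstream of PERK, was at 11.53 and 10.90 in cells 4 and 20, inside its range of 9.79 to 12.13 over all cells. Ddit3 (CHOP), the factor linked to prolonged stress, was above the floor in 8 cells, with 8.28 in cell 4, the floor in cell 20 and its highest value, 8.88, in cell 6. Derl3 reached 9.001 in cell 4 and was at the floor in cell 20.

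Genes of a list of secreted and basement membrane cargo differed more, by the median, than the members did. Of 13 tested genes of secreted and basement membrane cargo, 7 were called higher in the negative cells and 0 in the positive cells, against 1.76% and 2.67% of all tested genes, and the median difference was -1.26. The count was also 7 without cells 4 and 20, and the median -1.13. Cubn, also 1 of the primitive endoderm markers, differed by -3.82 and Lama1, a laminin chain, by -3.70, while Nid1 and Fn1 had the higher mean in positive cells, by 0.68 and 0.56. This cargo list was drawn up with earlier results of these cells known, so its direction and the size of its differences are a description only. They do not stand for ER cargo at large. The mean cargo level was highest in cells 20 and 4, at 11.30 and 11.21, against 10.14 to 10.93 in the other negative and 8.93 to 10.05 in the positive cells. Whether the cargo level has a part in the members' levels was not tested.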

How the data were processed

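Levels were measured on 20 Affymetrix expression arrays of 1 cell each. The deposited values are probe set intensity on a linear scale (1 to 26616). Per the labels' protocols, a lysed cell's cDNA was amplified by PCR without purification and labelled by a one-cycle protocol. How the probe sets were summarised and scaled is not given in the sources used here.

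Of 45101 probe sets, 64 were controls, 34945 had 1 gene in the platform annotation, 932 had several and 9160 had none; those with several or none were not named. Arrays were quantile-normalized. The floor was the 95th percentile, pooled over arrays, of 184 background probe sets (odorant and pheromone receptors, defensins, keratin-associated proteins and genes of other tissues); values were raised to it before log2, with no pseudocount. A gene is its probe set with the highest mean; 30 of the 40 members had several, and Ero1l was matched by Entrez identifier to its newer symbol. Genes that passed the floor in 3 cells or more count as tested. For arrays, the signal over the floor and their number limit the precision. Cells are numbered by the replicate number of their label, which is 1 cell and pairs nothing.

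Members and lists were chosen with earlier results of these data known. Named genes were every member, the called genes of other lists (or the 2 largest differences each way where none or over 6 were called) and the 5 genes most correlated with the member mean. Alternatives covered normalization, floor, filter, probe set, class summary, threshold and leaving out cells. The call rule was tested on simulated data. Python 3.11.15, numpy 2.4.6, pandas 2.3.3 and matplotlib 3.10.9 were used. Protein sequences were not used here.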

Additional observations from a re-analysis of the deposited data

Results flagged for a closer look

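Of 78 sets of 10 values (39 members in each Fgf4 class), 14 had a highest or lowest cell whose gap to its neighbour exceeded Dixon's 95% limit as a share of the class range; chance gives such a cell in about 1 in 20 sets of continuous, normal values. Sets with many cells at the floor are not of that kind, so the count of 14 is not to be set against that share. Among Fgf4-positive cells the high ones were Hyou1 at 10.04 in cell 7, Ero1l at 7.08 in cell 12, the only positive cell above the floor for it, and Herpud1 at 9.46 in cell 14. The low ones among positive cells were Manf at 8.79 and Sec61a1 at 9.91, both in cell 9, Ssr1 at 7.49 in cell 2, Ssr2 at 9.94 in cell 18 and Sdf4 at 7.64 in cell 19. Among Fgf4-negative cells the high ones were Ero1l at 9.55 in cell 8 and Rcn3 at 10.48 in cell 4. The low ones among negative cells were Pdia3 at 6.7 in cell 6, Manf at 6.7 in cell 10, both at the floor, Erp44 at 8.19 in cell 11 and Spcs2 at 9.18 in cell 3. No cause was tested.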

How the results depend on the processing

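Of 1248 member differences recomputed over the alternatives, 1 moved by at least the larger class SD, and 0 of the called members reversed. Most of the 1248 could not have moved that far. Leaving out a single cell cannot shift a class mean by its SD, and the filters and Fgf4 thresholds change no member difference. The count is therefore no measure of how stable the differences are. The 1 that moved was the Atf6 difference, -1.608 with values as read, where the brightest probe set was chosen anew and another one was used. With deposited intensities, a floor for each array, a floor at the 99th percentile, no filter or a filter at 10 cells, the same 4 members were called higher in negative cells and 0 higher in positive cells. Of all genes tested under these settings, 0.984% to 2.18% were called higher in negative and 1.5% to 3.39% higher in positive cells. An Fgf4 threshold halved or doubled left the classes as they were, so its outcome could not differ. With probe sets averaged, 1 member was called higher in negative cells (Rcn1), against 1.06% of all tested genes. With class medians, 1 member was called higher in positive cells (Eif2ak3) and 6 higher in negative cells, while the shares of all tested genes rose to 5.43% and 3.94%, and Ssr1 was not called. Without cells 4 and 20, chosen after seeing the data, 2 members were called higher in negative cells (Rcn2 and Calu), against 1.98% of genes. The median difference was then -0.1685 and the median r of ERSE pairs 0.2855. Cells 4, 8, 17 and 20 are a set taken from earlier results of these data. Without them 1 member was called higher in positive cells (Dnajb9), against 2.97% of genes. Another 3 were called higher in negative cells (Ssr1, Rcn1 and Calu, without Rcn2), against 2.28%. In that setting 22 had the higher mean in negative cells (47.1% of genes) and 22 the larger SD there (47.3%). The median difference was -0.07319 and the median r of ERSE pairs 0.3606. Leaving out each cell in turn gave 3 to 5 members called higher in negative cells (Ssr1 lost without cell 2; Txndc5 gained without cell 5, Pdia3 without cell 6 or 12 and Hyou1 without cell 7), 0 to 1 called higher in positive cells (Dnajb9, without cell 4), median differences from -0.467 to -0.275, median r of ERSE pairs from 0.4303 to 0.5652, counts with the higher mean in negative cells from 25 to 32 and counts with the larger SD there from 23 to 31. With a single cell left out, 1.78% to 2.07% of all tested genes were called higher in negative and 2.5% to 3.08% higher in positive cells. Except where the fewer cells or the probe sets themselves set the value, the cause was not tested. No paired analysis was possible because the labels hold 1 group. Signal over background limits Ern1, Atf6 and Ero1l, which sat at the floor in most cells.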
